A study of Mus musculus with 10 samples.

Results

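The STAT genes encode latent transcription factors of the cytoplasm, and 6 of them are described here out of 24411 gene symbols in the count files: Stat2, Stat3, Stat4, Stat5a, Stat5b and Stat6. They were taken by symbol, and 5 of the 6 passed the filter on low counts in each comparison; Stat4 had no read in any library. The 10 RNA-seq libraries came from mouse microglia, the resident macrophages of the brain, and every group had been given 10 uM EPZ-6438, which blocks the histone methyltransferase EZH2. Primary microglia were prepared from the brains of 12 pooled ICR mice that were 3 days old, grown as mixed glia and then shaken loose, and a portion was checked for CD11b by flow cytometry, per the labels. BV2 is an immortalised mouse microglial line. The groups were primary microglia with EPZ-6438 alone (n = 3), primary microglia with EPZ-6438 and lipopolysaccharide (LPS) at 10 ng/ml (n = 3), and BV2 cells with EPZ-6438 alone (n = 2) or with LPS added at the same dose (n = 2), at 4 h. No cells free of EPZ-6438 are analysed here, and no comparison measures what it does. The labels do not say whether replicates were separate cultures, so the spread behind each p-value is that between these libraries and may be technical.

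STAT proteins are phosphorylated by JAK kinases bound to cytokine receptors, pair up, enter the nucleus and bind DNA. STAT2 acts mostly in a complex with IRF9 downstream of type I interferon, which macrophages and microglia secrete after LPS is sensed by Toll-like receptor 4. STAT3 serves receptors of the interleukin-6 and interleukin-10 families, STAT4 the interleukin-12 receptor of lymphocytes, STAT5A and STAT5B receptors for growth factors such as GM-CSF, and STAT6 the receptors for interleukin-4 and interleukin-13. The values below are transcript levels and say nothing of phosphorylation or protein.

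Levels are given as CPM, gene counts scaled to a common library total, on library sizes scaled by the trimmed mean of M values (TMM). Libraries held from 2.75 M to 3.68 M gene counts. All 14 listed microglia and macrophage markers had counts in every group, with summed levels of 2945 to 3596 CPM over the primary libraries and 2147 to 2288 CPM over the BV2 libraries. The primary libraries also carried astrocyte markers, at 778 to 1327 CPM summed over 8 genes without LPS and 819 to 1460 CPM with it, against at most 0.312 CPM in BV2. Markers of 3 further lineages were also higher in the primary libraries, over both conditions: oligodendrocyte-lineage genes summed to 176 to 232 CPM against 25.1 to 28.4 CPM in BV2, neuronal genes to 75.6 to 89.3 CPM against 0, and fibroblast and endothelial genes to 90.3 to 337 CPM against at most 1.34 CPM. The neuronal sum came mostly from Map2, Tubb3 and Stmn2, while Rbfox3, Syt1 and Snap25 had at most 12 reads in a primary group. Of the endothelial genes, Pecam1 and Cldn5 had at most 3 reads in a primary group. Cdh5 stood at 8.47 CPM in primary microglia without LPS and 7.75 CPM with it. In bulk RNA, fewer cells of a type and less RNA per cell cannot be told apart. Reads of Rn45s, the ribosomal RNA precursor, were 50.3%, 51.7% and 40.9% of the gene counts of primary microglia without LPS. They were 43.7%, 15.7% and 16.0% of those with LPS, and 27.0% to 30.1% in BV2. Replicate 1 of the LPS-treated primary microglia stood apart in its counts over all genes, Rn45s included. They differed from those of replicates 2 and 3 by a chi-square of 61.1 and 66.1 per degree of freedom, against 2.62 between the latter. Its larger Rn45s share, 43.7% against 15.7% and 16.0%, is part of that distance. How far the other genes stood apart was not tested.

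The genes lie in 3 places of the mm10 build. Stat2 (chr10:128270559-128292849, plus strand) and Stat6 (chr10:127642986-127660957, plus strand) were 609.6 kb apart. Stat5b (chr11:100780731-100850724, minus strand), Stat5a (chr11:100859351-100885169, plus strand) and Stat3 (chr11:100885098-100939540, minus strand) stood next to each other. The starts of Stat5b and Stat5a were 8626 bases apart and pointed away from each other, and the 3′ ends of Stat5a and Stat3 overlapped by 72 bases on opposite strands. Stat4 (chr1:51987148-52107189, plus strand) lay alone. Counting was by strand, so reads of overlapping neighbours on opposite strands were kept apart, and reads on the opposite strand made up 0.378% to 2.22% of the stranded reads of the 6 genes in a library.

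Promoter sequence upstream of the annotated RefSeq start (GRCm38.p6, the mm10 build) is shown for the 4 members called with LPS in primary microglia: Stat2, Stat5a and Stat3, which rose, and Stat6, which fell. Stat5a has 2 annotated starts, and both are shown. Each line is the 250 bases before the start, 5′ to 3′ on the gene's strand, in lower case; capitals mark matches to the motifs named after them. The intervals are chr10:128270248-128270497 (plus strand) for Stat2, chr11:100859406-100859655 and chr11:100860234-100860483 (plus strand) for Stat5a, chr11:100939541-100939790 (minus strand) for Stat3 and chr10:127642736-127642985 (plus strand) for Stat6.
Stat2: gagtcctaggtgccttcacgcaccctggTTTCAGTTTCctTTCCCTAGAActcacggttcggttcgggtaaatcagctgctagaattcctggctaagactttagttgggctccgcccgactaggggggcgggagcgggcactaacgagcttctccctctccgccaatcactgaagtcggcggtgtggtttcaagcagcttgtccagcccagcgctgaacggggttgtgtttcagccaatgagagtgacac
Stat5a, first start: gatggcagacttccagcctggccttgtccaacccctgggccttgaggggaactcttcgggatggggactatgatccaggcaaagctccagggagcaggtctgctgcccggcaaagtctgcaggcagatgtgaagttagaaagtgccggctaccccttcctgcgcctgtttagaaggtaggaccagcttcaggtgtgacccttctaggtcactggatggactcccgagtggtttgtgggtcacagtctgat
Stat5a, second start: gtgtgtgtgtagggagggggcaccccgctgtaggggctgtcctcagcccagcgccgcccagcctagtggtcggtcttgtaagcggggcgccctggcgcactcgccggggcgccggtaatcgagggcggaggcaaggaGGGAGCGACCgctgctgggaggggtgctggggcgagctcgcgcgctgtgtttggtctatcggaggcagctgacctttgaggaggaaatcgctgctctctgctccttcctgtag
Stat3: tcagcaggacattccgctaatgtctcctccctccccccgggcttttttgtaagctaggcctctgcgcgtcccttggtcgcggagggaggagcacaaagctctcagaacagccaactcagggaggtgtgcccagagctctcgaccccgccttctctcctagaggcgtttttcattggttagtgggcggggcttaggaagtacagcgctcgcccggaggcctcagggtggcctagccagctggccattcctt
Stat6: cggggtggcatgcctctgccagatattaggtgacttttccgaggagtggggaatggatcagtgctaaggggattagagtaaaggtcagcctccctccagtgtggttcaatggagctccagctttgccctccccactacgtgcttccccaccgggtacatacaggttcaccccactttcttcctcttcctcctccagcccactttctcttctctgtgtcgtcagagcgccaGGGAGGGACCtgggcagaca

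The motifs were searched on both strands in windows of 300 bases, from 250 before to 50 after the start: the core of an interferon response element, GAAA and again GAAA with any 2 bases between; the STAT element, TTC and GAA with any 3 or 4 bases between; and an NF-kB element, GGGA and CC with any 4 bases between. The Stat2 window held an interferon response element on the opposite strand, TTTCAGTTTC, 222 to 213 bases before the start, and 2 bases on a STAT element with 4 spacer bases, TTCCCTAGAA, at 210 to 201. An interferon response element was found in 3.44% of the 32851 RefSeq windows searched, the STAT elements in 8.3% (3 bases) and 6.95% (4 bases), and the NF-kB element in 20.7%. The Stat3 window and both Stat5b windows held none of these motifs. Stat6 had an NF-kB match, GGGAGGGACC, 20 to 11 bases before its start, and the second of the 2 Stat5a windows had another, GGGAGCGACC, 113 to 104 bases before its start. Stat4, which had no reads here, also carried an interferon response element, GAAAGTGAAA, in 1 of its 2 windows. A match is a string of letters and not a measured binding site.

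In primary microglia under EPZ-6438, LPS moved the members in different directions. Stat2, Stat5a and Stat3 rose, Stat6 fell, and Stat5b did not pass the test. A gene is called here at an adjusted p under 0.05 in edgeR's quasi-likelihood test with Benjamini-Hochberg adjustment over all genes tested. Of the 5 members tested, 3 were called higher and 1 lower. Of all 10664 genes tested, 39.2% were called, 21.4% higher and 17.8% lower, so calls as such were common in this comparison. The median log2 fold change of the 5 members was 0.90, against -0.03 over all genes.

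Stat2, the interferon-linked member, stood at 15.0, 18.8 and 17.9 CPM in the primary libraries without LPS and at 342, 269 and 251 CPM in those with LPS. The groups were far apart, and the highest value belonged to replicate 1, the LPS library with the largest share of Rn45s. The rise was 16.5-fold (log2 4.04 ± 0.16 SE, edgeR adjusted p = 1.16e-13). Without that library it was 3.90 on the log2 scale.

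Stat3, which relays interleukin-6 and interleukin-10, stood at 130, 121 and 148 CPM without LPS and at 238, 261 and 255 CPM with LPS. Every LPS library lay above every library without LPS. The rise was 1.87-fold (log2 0.90 ± 0.12 SE, edgeR adjusted p = 3.41e-06).

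Stat5a and Stat5b are close copies that sit side by side, and Stat5a alone of the pair passed the test. Stat5a stood at 8.24, 7.36 and 12.0 CPM without LPS, from 22, 18 and 34 reads, and at 36.4, 45.0 and 34.6 CPM with LPS. Its groups did not overlap, and its rise was 4.12-fold (log2 2.04 ± 0.21 SE, edgeR adjusted p = 2.41e-07). Stat5b stood at 35.6, 32.3 and 38.7 CPM without LPS and at 30.9, 38.9 and 34.3 CPM with LPS. These groups overlapped, with a log2 fold change of -0.04 ± 0.15 SE and a 95% interval of -0.37 to 0.28 (edgeR adjusted p = 0.846).

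The ratio of Stat5a to Stat5b reads does not depend on library size. It was 0.256 ± 0.0459 (SD, n = 3) without LPS and 1.11 ± 0.0920 (SD, n = 3) with LPS, with ranges of 0.228 to 0.309 and 1.01 to 1.18. The log2 ratio differed by 2.13 (two-sided exact permutation test, p = 0.1, the smallest that 3 against 3 libraries allow). The transcripts of the 2 genes share stretches: 6.24% of the 101-base windows of Stat5a occur in Stat5b, and 4.82% of those of Stat5b in Stat5a. No other pair of members shared even a 30-base window. Reads that map to both genes are left out of these counts, so both levels may be somewhat low in every group.

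Stat6, which serves interleukin-4 and interleukin-13, moved the other way. It stood at 79.0, 87.9 and 87.3 CPM without LPS and at 61.9, 58.7 and 56.4 CPM with LPS. Every LPS library lay below every library without LPS. The fall was 1.45-fold (log2 -0.54 ± 0.12 SE, edgeR adjusted p = 0.00180).

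The groups did not overlap for 3 members that were higher and 1 that was lower, against 26.6% and 22.4% of all genes tested. Because Rn45s differed between these libraries, the test was repeated without structural RNA genes. The log2 fold changes were then 4.05 for Stat2, 0.91 for Stat3, 2.05 for Stat5a, -0.04 for Stat5b and -0.53 for Stat6.

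**Figure D1:**
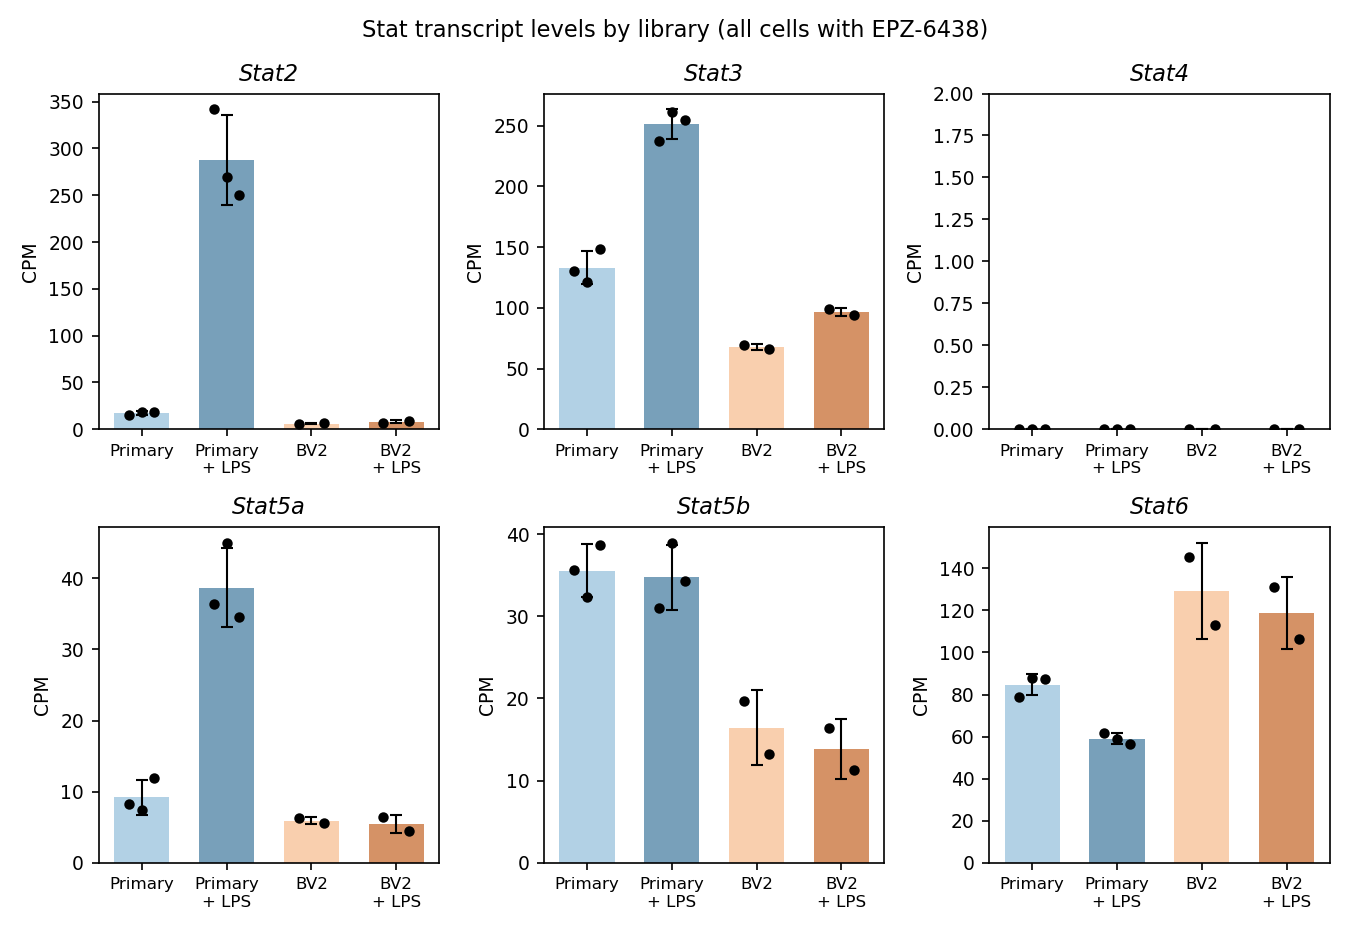
Level of each Stat transcript in CPM (vertical axis, from 0) in the 4 groups; points are libraries, bars are group means and error bars are 1 SD (n = 3 for primary microglia, n = 2 for BV2). Stat2 reached 251 to 342 CPM in LPS-treated primary microglia and stayed under 20 CPM in every other library, while Stat4 was at 0 throughout.

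In BV2 cells given the same LPS dose, Stat3 rose, and the other 4 members tested did not pass edgeR's test. None was called lower, by edgeR, by DESeq2 or at an unadjusted p under 0.05. Of the 9321 genes tested, 5.2% were called, 3.69% higher and 1.51% lower. The median log2 fold change of the 5 members was -0.09, against -0.01 over all genes.

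Stat3 stood at 69.6 and 65.8 CPM in BV2 cells without LPS and at 99.0 and 94.4 CPM with LPS. The groups did not overlap, and the rise was 1.46-fold (log2 0.55 ± 0.14 SE, edgeR adjusted p = 0.0464). The call was close to the threshold: the adjusted p was 0.161 with DESeq2, and 0.267 and 0.412 in edgeR without replicate 1 or replicate 2 of the BV2 cells without LPS.

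Stat2 was scarce in BV2, at 5.61 and 6.28 CPM without LPS (18 and 19 reads) and 7.05 and 9.30 CPM with LPS (21 and 33 reads). Both LPS libraries were above both others, but the log2 fold change of 0.50 ± 0.33 SE had a 95% interval of -0.21 to 1.22 (edgeR adjusted p = 0.587). Non-overlapping groups were frequent with 2 libraries each: 17.1% of all genes were separated upwards and 24.9% downwards, against 2 members upwards, Stat2 and Stat3, and 0 downwards.

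Stat5a stood at 6.24 and 5.62 CPM in BV2 without LPS and at 6.38 and 4.51 CPM with LPS. Its 95% interval on the log2 scale ran from -0.88 to 0.67, and with 16 to 20 reads a library a change within that range was not detectable at this depth. Stat5b, at 19.6 and 13.2 CPM against 16.4 and 11.3 CPM, had an interval of -0.83 to 0.37. Stat6 stood at 145 and 113 CPM without LPS and 131 and 106 CPM with LPS, with an interval of -0.44 to 0.25. The groups overlapped for all 3 genes, and their adjusted p-values in edgeR's test were 0.950, 0.828 and 0.886. The Stat5a to Stat5b ratio was 0.371 without LPS and 0.394 with LPS (means of 2 libraries; log2 difference 0.10, two-sided exact permutation test, p = 1, where 0.333 is the smallest possible).

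Stat4 is the STAT of the interleukin-12 receptor, best known from T and natural killer cells. It had 0 reads in all 10 libraries, on either strand. A count of 0 allows up to 3 reads, counting error only. That is 0.845 to 1.23 CPM in a library, and 0.326 to 0.481 CPM over the libraries of a group. A transcript under the latter level could have been missed in a group. Of 14 lymphocyte markers, 4 and 5 had a read in the primary groups and 2 and 1 in the BV2 groups, and Cd3g, Cd8a, Ms4a1, Gzma and Prf1 were among those at 0 in every library. The T cell co-receptor gene Cd4 was not. In primary microglia its level was 8.59 ± 1.72 CPM without LPS and 4.90 ± 0.894 CPM with it (SD, n = 3), from 69 and 46 reads. Cd4 had 0 reads in BV2. Lck, a kinase of T cells, stood at 5.64 ± 1.37 and 8.09 ± 0.517 CPM in BV2 (SD, n = 2) and at 0.889 ± 0.577 and 3.55 ± 0.691 CPM in primary microglia (SD, n = 3).

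The response to LPS was then compared between the cell sources in a fit over all 10 libraries. Of 11626 genes tested, 12.2% differed, 8.65% with the higher log2 response in primary microglia and 3.54% with the lower. Of the 5 members, 2 were called, both with the higher response in primary microglia, and 0 with the lower, by edgeR, by DESeq2 or at an unadjusted p under 0.05. At an unadjusted p, Stat3 joined them with the higher response in primary microglia. The log2 response of Stat2 was larger by 3.58 ± 0.37 SE (edgeR adjusted p = 3.10e-08), and that of Stat5a by 2.20 ± 0.43 SE (edgeR adjusted p = 0.000501). Without replicate 1 of the LPS-treated primary microglia these differences were 3.34 and 2.14.

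For the other members a difference in response was not shown. The difference was 0.40 for Stat3 (95% interval 0.01 to 0.79, edgeR adjusted p = 0.205), although Stat3 passed the test in both cell sources. It was 0.23 for Stat5b (-0.41 to 0.87, adjusted p = 0.786). It was -0.40 for Stat6 (-0.82 to 0.02, adjusted p = 0.259), so the call of Stat6 in primary microglia and its absence in BV2 do not by themselves separate the cell sources.

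**Figure D2:**
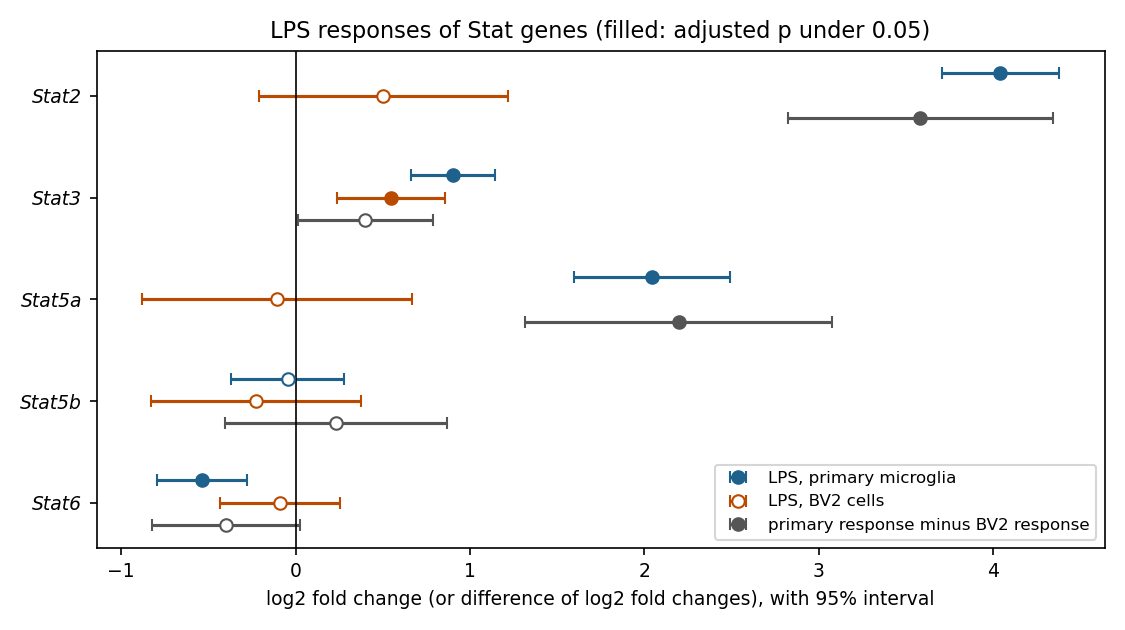
Log2 fold change with LPS in primary microglia (blue) and BV2 cells (orange), and the difference of the responses (grey), with 95% intervals; filled points had an adjusted p under 0.05 in edgeR's test. The intervals of the difference lie above 0 with a call for Stat2 (3.58) and Stat5a (2.20), and every interval for Stat5b spans 0.

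The cell sources also differed in the levels themselves, in a comparison where most genes did. Without LPS, 74.1% of 11626 genes were called, 41.5% higher and 32.5% lower in primary microglia, and with LPS 73.8%, 43.1% and 30.7%. Against that background, 3 members were called higher and 1 lower in primary microglia without LPS, and 4 and 1 with LPS. The median log2 difference of the 5 members was 0.98 without LPS and 1.38 with LPS, against 0.23 and 0.29 over all genes.

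Stat6 was the member with the higher level in BV2. Its group means were 84.7 ± 4.94 CPM (SD, n = 3) in primary microglia and 129 ± 22.9 CPM (SD, n = 2) in BV2 without LPS, a log2 difference of -0.61 ± 0.14 SE (edgeR adjusted p = 0.000454). With LPS the means were 59.0 ± 2.75 and 119 ± 17.3 CPM, and the log2 difference was -1.01 ± 0.15 SE (edgeR adjusted p = 6.48e-07). All primary libraries lay below all BV2 libraries in both conditions.

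Of the other members, 3 were higher in primary microglia without LPS and 4 with it. Without LPS, Stat2 was higher there by 1.53 ± 0.26 SE on the log2 scale, Stat3 by 0.98 ± 0.14 and Stat5b by 1.11 ± 0.22, with edgeR adjusted p-values of 7.39e-06, 5.49e-07 and 5.35e-05. With LPS, Stat2 was higher by 5.11 ± 0.21 SE, which is 34.6-fold, Stat5a by 2.83 ± 0.27, Stat3 by 1.38 ± 0.13 and Stat5b by 1.34 ± 0.22, with adjusted p-values of at most 4.90e-06. Stat5a without LPS was at the edge: its log2 difference of 0.64 ± 0.31 SE had an adjusted p of 0.0668. That p was 0.0415 without replicate 1 of the LPS-treated primary microglia and 0.0398 without replicate 2 of the primary microglia without LPS. Cell source, culture and the RNA of astrocyte, oligodendrocyte, neuron, fibroblast and endothelial markers in the primary libraries differ together here, and their parts cannot be told apart.

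To set the members beside each other, CPM was divided by the length of each gene's merged exons in kilobases (GENCODE vM21), from 3.148 kb for Stat4 to 6.228 kb for Stat3. In primary microglia without LPS, the order was Stat6 at 22.4 ± 1.31 CPM per kb (SD, n = 3), Stat3 at 21.4 ± 2.19, Stat5b at 6.41 ± 0.579, Stat2 at 3.92 ± 0.456 and Stat5a at 2.32 ± 0.616. Stat6 and Stat3 overlapped, and the rest were separate from their neighbours. With LPS the order was Stat2 at 65.3 ± 10.9, Stat3 at 40.3 ± 1.95, Stat6 at 15.6 ± 0.729, Stat5a at 9.74 ± 1.40 and Stat5b at 6.27 ± 0.722 CPM per kb. Stat2 thus went from near the bottom of the order to its top, with Stat5a now above Stat5b, and no neighbours in the order overlapped.

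In BV2 cells the order was led by Stat6 in both conditions. Without LPS it stood at 34.2 ± 6.05 CPM per kb (SD, n = 2), ahead of Stat3 at 10.9 ± 0.430, Stat5b at 2.97 ± 0.821, Stat5a at 1.49 ± 0.110 and Stat2 at 1.35 ± 0.107, where the last pair overlapped. With LPS it stood at 31.4 ± 4.58, ahead of Stat3 at 15.5 ± 0.528, with Stat5b (2.50 ± 0.661), Stat2 (1.86 ± 0.361) and Stat5a (1.37 ± 0.333) overlapping as neighbours.

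Summed over the 6 genes, the level was 56.5 ± 3.94 CPM per kb (SD, n = 3) in primary microglia without LPS and 137 ± 9.63 with LPS. In BV2 it was 50.9 ± 7.31 (SD, n = 2) and 52.7 ± 5.74. Stat2 made up 6.95% ± 0.768 of the sum in primary microglia without LPS and 47.4% ± 4.74 with LPS, while Stat6 went from 39.8% ± 2.42 to 11.4% ± 0.277. In BV2, Stat2 held 2.70% and 3.59%, and Stat6 67.1% ± 2.26 and 59.5% ± 2.20. Stat3 held 37.8% and 29.5% in primary microglia and 21.5% and 29.6% in BV2.

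**Figure D3:**
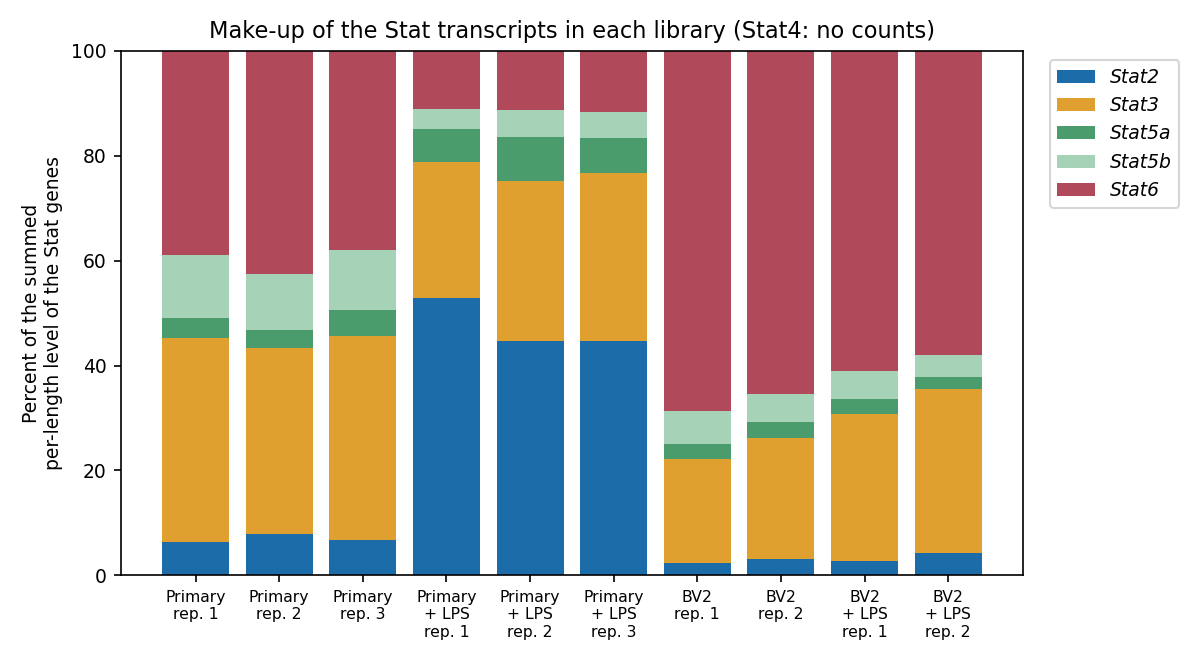
Share of each Stat gene in the summed per-length level (percent of CPM per kb, vertical axis) in each of the 10 libraries. Stat2 fills the largest part of the LPS-treated primary libraries (mean 47.4%) and Stat6 the largest part of the BV2 libraries (means 67.1% and 59.5%).

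Counts for the other genes of the pathway are read against the shares of all genes called, 21.4% higher and 17.8% lower in primary microglia and 3.69% and 1.51% in BV2. A gene that passed the filter on low counts only through the LPS libraries was favoured in advance to be called higher. Of such genes among all tested, 318 of 453 were called higher in primary microglia and 67 of 234 in BV2. The number of these genes is therefore given where they make up much of a count.

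The JAK kinases, which phosphorylate the STATs, were read first. In primary microglia, 2 of 4 rose with LPS and 1 fell. Jak2 went from 48.3 ± 8.47 to 764 ± 50.3 CPM (SD, n = 3; log2 3.97 ± 0.14 SE, edgeR adjusted p = 1.79e-14). Tyk2, the kinase of the interferon receptor, went from 41.7 ± 3.69 to 98.5 ± 6.29 CPM (log2 1.23 ± 0.13 SE, edgeR adjusted p = 2.89e-07). Jak1 had a log2 fold change of 0.27 ± 0.12 SE (edgeR adjusted p = 0.0720). Jak3 fell from 7.74 to 4.31 CPM (log2 -0.86 ± 0.32 SE, edgeR adjusted p = 0.0389). That call did not hold with DESeq2 (adjusted p = 0.164). In edgeR it was lost without replicate 1 (0.0886) or 2 (0.160) of the primary microglia without LPS. The same held without replicate 2 (0.147) or 3 (0.0979) of those with LPS.

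None of the 3 JAK kinases tested in BV2 passed edgeR's test or DESeq2's, and 1, Tyk2, had an unadjusted p under 0.05. Jak2 stood at 21.6 ± 3.61 CPM without LPS and 26.4 ± 6.05 CPM with it (SD, n = 2; log2 0.34 ± 0.24 SE, edgeR adjusted p = 0.621). The Jak2 response differed between the cell sources by 3.68 ± 0.26 SE on the log2 scale (edgeR adjusted p = 1.25e-11). All 4 kinases were higher in primary microglia than in BV2, with and without LPS; the call of Jak3 with LPS was lost with DESeq2 (adjusted p = 0.0595) and without replicate 1 of the LPS-treated primary microglia (0.0632) or replicate 2 of the LPS-treated BV2 cells (0.212).

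Among the nuclear partners, Irf9, which joins STAT2 on interferon response elements, rose in both cell sources. It went from 20.2 ± 0.802 to 112 ± 6.58 CPM (SD, n = 3; log2 2.45 ± 0.14 SE, edgeR adjusted p = 2.45e-11) in primary microglia and from 8.77 ± 2.59 to 23.4 ± 2.03 CPM (SD, n = 2; log2 1.44 ± 0.26 SE, edgeR adjusted p = 0.00489) in BV2. Its responses differed by 1.06 ± 0.29 SE on the log2 scale (edgeR adjusted p = 0.0123), but not without replicate 1 of the BV2 cells without LPS (0.73, adjusted p = 0.302). In all, 3 of 7 partners rose and 1 fell in primary microglia (median log2 fold change -0.34), with Nmi, a STAT-binding protein, up by 3.17 and the coactivator Ncoa1 down at -1.13. Nmi passed the low-count filter only through the LPS libraries, and 2 of the 6 that passed without LPS rose. In BV2 only Irf9 of the 7 was called (median -0.16).

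Of 20 listed genes for ligands that signal through STATs, 12 were tested in primary microglia, and 9 of these were called higher and 0 lower. The low-count filter favoured most of these calls in advance: 8 of the 9 passed it only through the LPS libraries, 5 of them with 0 reads without LPS. Of the 4 ligand genes that passed on the libraries without LPS, 1 rose, Lif, which signals through STAT3, from 10.6 ± 1.99 to 29.7 ± 1.49 CPM (SD, n = 3). Il12b, a subunit of interleukin-12, had 0 reads without LPS and 300 ± 5.09 CPM (SD, n = 3) with it, at least 795-fold higher, and Il27 was at least 383-fold higher. Ifnb1, the interferon gene that lies upstream of STAT2, had 0 reads without LPS and 106 with it, at least 30.4-fold higher. Il23a, the gene next to Stat2 on chromosome 10, was at least 25.1-fold higher. In BV2 only 3 ligand genes were tested. Csf3 (at least 171-fold higher) and Il6 (at least 39.4-fold higher) had 0 reads without LPS and entered through the LPS libraries, and Osm, which passed without LPS, rose by 1.54 on the log2 scale. Ifnb1 had 1 read in BV2 with LPS and 0 without.

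Of 20 receptor chains tested in primary microglia, 9 were called higher and 4 lower, with a median log2 fold change of 0.32. The share called lower, 20%, was near that of all genes (17.8%). Of the 19 that passed the low-count filter without LPS, 8 were higher and 4 lower. The largest rises were of Il15ra (4.51), which passed only through the LPS libraries, and Il13ra1 (2.54). Il13ra1 pairs with the interleukin-4 receptor in front of STAT6. The largest falls were of Il6ra (-3.04), the interleukin-6 binding chain in front of STAT3, and Il7r (-1.90). In BV2, 2 of 17 rose and 0 fell (median 0.14), and 1 of the 15 that passed without LPS rose. The 2 were Il15ra (1.71), which again passed only through the LPS libraries, and Il10ra (1.17). Neither held with DESeq2 (adjusted p = 0.213 and 0.0918), and Il15ra did not hold without replicate 2 of the BV2 cells without LPS (0.0862).

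Inhibitors of the pathway included 8 called higher and 2 lower of 18 tested in primary microglia (median log2 fold change 0.35). Of those called higher, 4 passed the low-count filter only through the LPS libraries, Usp18, Socs1 and Socs3 among them. Of the 14 inhibitors that passed without LPS, 4 were higher and 2 lower. Over all genes that passed without LPS, 1965 of 9741 were higher and 1892 lower. Usp18, which damps interferon receptor signalling, rose by 7.70 on the log2 scale. Socs1 went from 1.41 ± 1.04 to 90.7 ± 9.03 CPM (SD, n = 3) and Socs3, the brake on interleukin-6 receptors, from 6.78 ± 2.73 to 242 ± 16.0 CPM. The falls were of Socs6 (-1.20) and Pias2 (-0.52, adjusted p = 0.0238). The Pias2 call did not hold with DESeq2 (0.102). In edgeR it was lost without replicate 1 (0.100), 2 (0.0510) or 3 (0.0555) of the primary microglia without LPS. The same held without replicate 2 (0.0979) or 3 (0.0668) of those with LPS. In BV2, 2 of 15 rose and 0 fell (median 0.17): Socs3 by 5.58 ± 0.37 SE on the log2 scale (edgeR adjusted p = 1.02e-06) and Usp18 by 1.54 ± 0.32 SE (adjusted p = 0.0122). Socs3 passed the low-count filter only through the LPS libraries there too, and 1 of the 14 that passed without LPS rose. The Usp18 call did not hold with DESeq2 (0.120) or without replicate 2 of the BV2 cells without LPS (0.0598).

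**Figure D4:**
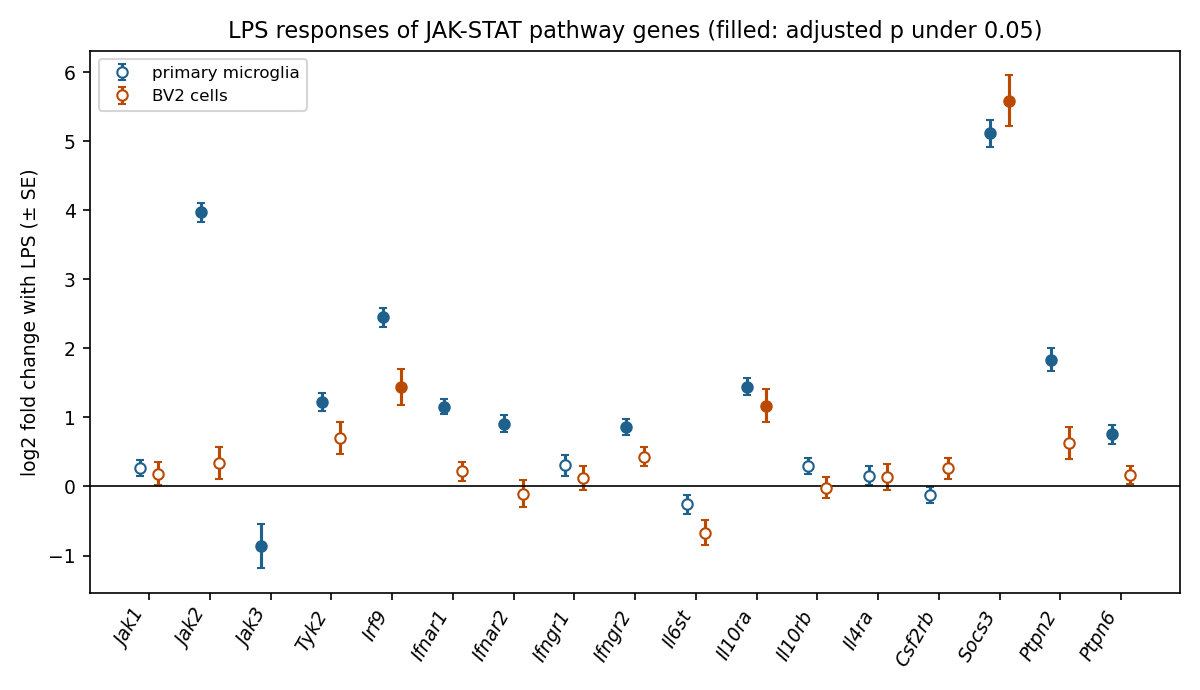
Log2 fold change with LPS (vertical axis, ± SE) of JAK kinases, Irf9 and a chosen part of the receptor chains and inhibitors. Primary microglia are in blue and BV2 in orange, and filled points had an adjusted p under 0.05 in edgeR's test. The receptor chains and inhibitors called lower in primary microglia are not drawn. Jak2 sits at 3.97 in primary microglia and 0.34 in BV2, while Socs3 sits above 5 in both. Socs3 passed the low-count filter only through the LPS libraries in both cell sources.

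Lists of known target genes were read last. Of 22 interferon-induced genes linked to STAT2 with IRF9, 22 rose in primary microglia, but 17 of them passed the low-count filter only through the LPS libraries; the 5 that passed without LPS were Parp14, Ifit2, Ifih1, Oas1a and Bst2. In BV2, 9 of 16 tested rose, 6 of them having passed only through the LPS libraries, and 3 of the 8 that passed without LPS. None was lower in either cell source, by edgeR or at an unadjusted p under 0.05. Rsad2 went from 0.886 ± 0.451 to 4207 ± 464 CPM (SD, n = 3) in primary microglia and from 5.31 ± 0.898 to 30.1 ± 6.46 CPM (SD, n = 2) in BV2. Ifit1 had 1 read over the primary libraries without LPS and 12607 with LPS, a ratio of 10023 with a 95% counting interval of 1953 to 430012. With DESeq2, 5 of these genes were called higher in BV2. The response was larger in primary microglia for 17 of 22 and smaller for 0, against 8.65% and 3.54% of all genes. Most of the 22 passed the filter in primary microglia only through the LPS libraries, as given above. A larger response there was thus favoured in advance, and the count is not read as a result.

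Of 16 STAT3-linked genes, 12 rose and 1 fell in primary microglia (median 1.01), and 10 of the 14 that passed the low-count filter without LPS rose. In BV2, 9 of 13 tested rose and 0 fell (median 1.36), and 7 of the 11 that passed without LPS rose. Socs3 in both cell sources and Lcn2 in BV2 passed only through the LPS libraries. Il1rn, the interleukin-1 receptor antagonist, rose by 5.49 on the log2 scale in primary microglia, and Fos fell at -1.72. In BV2, Lcn2, which encodes the iron-scavenging lipocalin, had 1 read without LPS and 327 with it, a ratio of 301 with a 95% counting interval of 55.6 to 12367. The log2 responses differed by 4.18 for Il1rn, higher in primary microglia, and by -4.34 for Lcn2, lower there. In all, 4 of the 16 responses were called larger and 1 smaller in primary microglia, against 8.65% and 3.54% of all genes.

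Of 10 STAT5-linked genes, 2 rose in primary microglia, the kinase gene Pim1 (4.76) and the feedback inhibitor Cish (3.62), and 0 fell (median 0.10). That is 20%, near the 21.4% of all genes called higher, so the count is no result about these genes. In BV2, Pim1 (3.25) and Osm (1.54) rose and the cyclin gene Ccnd1 fell (-0.89) among 9 tested (median 0.24). Of 16 STAT6-linked genes, 8 could be tested in primary microglia: 4 rose and 0 fell, namely Ccl22, at least 56.4-fold higher, Socs1, Cish and Tgm2. All of these but Tgm2 passed the low-count filter only through the LPS libraries. Of the 5 that passed without LPS, 1 rose. That is near the share over all genes that passed so, 1965 of 9741, so the count is no result about these genes. In BV2, 3 were testable and 0 passed edgeR's test or DESeq2's, with 2 lower at an unadjusted p under 0.05. Several genes, such as Pim1, Usp18, Socs1, Socs3, Cish and Osm, stand on more than 1 of the lists.

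Finally, the genes with the most similar course to each member over the 10 libraries were read from Pearson's r of log2 CPM among 9772 genes. These values describe libraries that share 4 groups and carry no p. Jak2 followed Stat2 most closely (r = 0.996), ahead of Gm21188 and Ifih1, a sensor of viral RNA (both 0.996). Stat3 was followed by Src (0.993), Rasa4 (0.991) and Sqstm1 (0.991), and Stat5a by Npc2 (0.992), Acp5 (0.987) and P4ha1 (0.986). Stat5b was followed by Pxn (0.992), Capn1 (0.988) and Os9 (0.987), and Stat6 by Gpd1l, Nckap5l (both 0.982) and Itpripl1 (0.979). The levels behind these values spanned unequal ranges, 5.77 on the log2 scale for Stat2 and 1.35 for Stat6.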

How the data were processed

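Read counts per gene were deposited by the authors as whole numbers, with 1 column unstranded and 1 per strand. Per the submitters' processing notes, CASAVA 1.8.2, Trimmomatic 0.33 and STAR 2.5.1 were used on mm10, and DESeq2 is named without a version; no source used here gives the annotation behind the counts. The reverse-strand column was used, since the kit is directional per the labels' protocols. Entries naming no gene held 70.4% to 79.5% of reads and were left out.

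Genes were filtered with filterByExpr (minimum count 10, minimum total 15), scaled by TMM and tested with edgeR 4.0.16 in R 4.3.3 (robust quasi-likelihood F test, Benjamini-Hochberg over all genes tested). LPS was tested within each cell source; differences of responses and cell sources used all 10 libraries. DESeq2 1.42.0 and other settings were alternatives. The script was tested on simulated data. The members and lists were chosen with earlier results of these data known. The text names every member, of each list up to 4 called genes with the largest rise or fall at a mean of at least 5 CPM, and Irf9, the JAK kinases, Socs1, Socs3 and Cish; other list genes (Ifnb1, Il23a, Lif, Tgm2, Osm, Parp14, Ifit2, Ifih1, Oas1a, Bst2) were named after their values were seen. No 2 replicates of a group agreed within sampling noise (chi-square per degree of freedom of at least 1.52, with Rn45s counted).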

Additional observations from a re-analysis of the deposited data

Results flagged for a closer look

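The response to LPS differed between primary microglia and BV2 cells, by a test of the difference itself, for 2 members. For Stat2 the log2 response was larger in primary microglia by 3.58, and all 3 LPS libraries of primary microglia lay above all 3 without LPS, as both did in BV2 on a far smaller scale. For Stat5a it was larger by 2.20, with separate groups in primary microglia and overlapping groups in BV2. Both calls held under each of the 16 alternatives tried, DESeq2 among them, with log2 differences of 3.34 to 3.81 for Stat2 and 1.95 to 2.46 for Stat5a. The markers of astrocytes and other cell types and the share of Rn45s that differ between the cell sources stand beside the levels in the text above, and their part in these differences was not tested.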

How the results depend on the processing

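Across 360 combinations of a member's fold change and an alternative, 354 kept their call, 3 lost it, 3 gained it and 0 called values reversed. The losses were Stat3 in BV2 and the gains Stat5a between the cell sources without LPS. With DESeq2, 318 genes were called in BV2 instead of 485, and 0 members instead of 1; the cause was not tested. Leaving out 1 replicate at a time gave 353 to 800 called genes in BV2, the latter without replicate 1 of the LPS-treated cells, and 0 to 1 members called higher, with fewer samples behind each call. Deviations from the group mean correlated by 0.181, -0.0775 and 0.194 between primary libraries of the same number and by 0.156 in BV2, and the numbers were not used as pairs. With the replicate block, 4479 genes were called in primary microglia against 4178, 596 in BV2 and 1685 for the difference of responses, with the members' calls kept. The median log2 difference of responses over all genes was 0.04, and -0.07 without structural RNA genes; between the cell sources it was 0.23 and 0.29, and 0.53 and 0.47 with no filter on low counts. Dividing by the longest transcript in place of the merged exons, chosen after seeing the data, left each member's share within 1 SD. At 2.75 M to 3.68 M gene counts a library, Stat4 could not be tested, and Stat2 and Stat5a in BV2 rested on 16 to 33 reads a library.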
